A study of Rattus norvegicus with 16 samples.

Results

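The genes described here are 7 matrix metalloproteinases, Mmp2, Mmp3, Mmp9, Mmp11, Mmp12, Mmp13 and Mmp14, and 3 tissue inhibitors of metalloproteinases, Timp1, Timp2 and Timp3. They were chosen by symbol, a symbol being read from its brightest probe set on average, and make up 10 of the 14324 genes that the array annotation names by 1 symbol. Each of the 10 had a single probe set, and all 10 were among the 11796 genes bright enough to be tested. They were followed in mammary gland RNA of female Wistar Han rats at postnatal day (PND) 35 and PND 50, on 16 Affymetrix arrays in 8 groups of 2. From gestational day 1 to weaning at PND 21, the mothers of all but the control groups received by gavage genistein, a soy isoflavone that binds estrogen receptors, vinclozolin, a fungicide whose metabolites block the androgen receptor, or both together, labelled with a daily dose of 1 mg/kg. The labels do not say whether that dose in the mixture is of each compound or of both. The controls are labelled untreated, and the labels mention no vehicle. All animals ate a diet free of phytoestrogens and came from dams assigned at random in groups of 15, with 1 female taken per litter. RNA was prepared from single glands, and each array carried a pool from 5 animals, so the spread between the 2 pools of a group is that between pools and not that between animals.

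Matrix metalloproteinases are zinc-dependent proteases that cut collagens, laminins, proteoglycans and elastin. Most are secreted as inactive precursors and are activated by other proteases. The Timp proteins bind the active site and block it. In the pubertal mammary gland these proteases come largely from the stroma around the ducts and take part in ductal elongation and branching. Their mRNA does not measure enzyme activity.

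The promoters of 3 of the proteases are printed first because they carry the same pair of motifs. RefSeq promoter sequences of the assembly GRCr8 were matched by symbol for 7 of the 10 genes, and the 250 bases before the annotated start were read. The 3 protease promoters lie on the plus strand of chromosome 8, at chr8:12782579-12782828 for Mmp13, chr8:12866402-12866651 for Mmp12 and chr8:12925031-12925280 for Mmp3. In the RefSeq order of genes, Mmp13, Mmp12, Mmp1b and Mmp3 follow each other, and Mmp1, Mmp10, Mmp8, Mmp27, Mmp20 and Mmp7 come next. Capitals mark the AP-1 motif (TGANTCA, bound by Fos and Jun proteins) and the TATA box (TATAAA), and each sequence runs 5′ to 3′ to the base before the start.
Mmp13: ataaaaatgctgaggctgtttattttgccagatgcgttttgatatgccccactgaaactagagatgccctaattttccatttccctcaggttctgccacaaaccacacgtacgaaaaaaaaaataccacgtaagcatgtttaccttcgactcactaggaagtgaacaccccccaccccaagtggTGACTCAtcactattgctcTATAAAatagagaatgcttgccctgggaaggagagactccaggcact
Mmp12: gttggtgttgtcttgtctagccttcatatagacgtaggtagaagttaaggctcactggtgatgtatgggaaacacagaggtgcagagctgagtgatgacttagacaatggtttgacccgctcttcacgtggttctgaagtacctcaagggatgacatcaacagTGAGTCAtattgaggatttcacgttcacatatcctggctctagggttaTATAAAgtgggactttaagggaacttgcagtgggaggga
Mmp3: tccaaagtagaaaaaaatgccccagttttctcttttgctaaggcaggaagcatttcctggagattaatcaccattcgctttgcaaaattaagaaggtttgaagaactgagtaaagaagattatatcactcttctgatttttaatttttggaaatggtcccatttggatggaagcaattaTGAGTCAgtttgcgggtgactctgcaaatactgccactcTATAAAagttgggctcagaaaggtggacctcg
The AP-1 match began 66 bases before the start in Mmp13, 87 in Mmp12 and 71 in Mmp3, and the TATA match 47, 39 and 32 bases before it. Searched on both strands, the AP-1 motif occurred in 6.34% and the TATA motif in 12.931% of the 33469 rat promoter windows of this length, and both together in 1.022%. No base of one match lay in the other. The promoter of Timp1, the inhibitor that changed most in these data, is shown beside them. It lies on the minus strand of chromosome X, at chrX:3771123-3771372. Its capitals would mark exact matches to the same motifs, of which it holds none. It does hold tgagtaa, which has an A where the AP-1 motif has a C, and such near matches were not searched.
Timp1: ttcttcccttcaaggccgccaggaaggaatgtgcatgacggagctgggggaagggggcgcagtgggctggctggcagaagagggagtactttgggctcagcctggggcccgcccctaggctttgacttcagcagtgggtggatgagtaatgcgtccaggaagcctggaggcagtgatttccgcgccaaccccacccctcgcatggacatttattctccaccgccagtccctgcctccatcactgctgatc
The windows of Mmp11, Timp2 and Timp3 held neither motif. A PEA3 motif (AGGAAG), found in 29.514% of windows, occurred once in Mmp3 and Mmp13 and at 2 places in Timp1. GC content was 44.4% for Mmp13, 45.6% for Mmp12 and 38.8% for Mmp3, under the 51.2% median of all windows, and 61.2% for Timp1, 66% for Mmp11, 69.6% for Timp3 and 72% for Timp2. These matches describe the letters only, and binding was not measured.

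**Figure D1:**
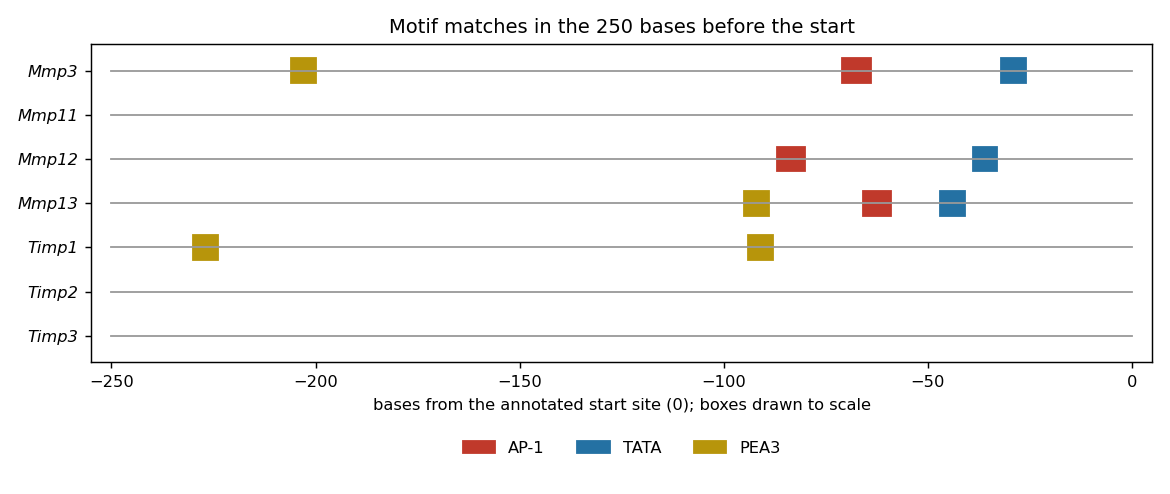
Motif matches in the 250 bases before the annotated start of the 7 genes with a promoter sequence, with distance from the start in bases on the x axis and boxes drawn to scale for AP-1 (red), TATA (blue) and PEA3 (yellow). Mmp3, Mmp12 and Mmp13 carry an AP-1 box 66 to 87 bases and a TATA box 32 to 47 bases before the start, and Mmp11, Timp2 and Timp3 carry no box.

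Markers of the gland were measured well above the filter on dim probe sets. Over the 16 arrays the luminal keratin Krt8 averaged 9.85 on the log2 scale, the basal keratin Krt14 8.96 and the fat cell hormone Adipoq 12.66, and all 14 luminal, 9 basal and 11 adipocyte markers on the array could be tested. Pools of a group correlated between 0.9893 and 0.9966 over probe sets, lowest for vinclozolin at PND35. The vinclozolin pools at PND35 also stood apart in skin and hair markers, whose summed linear intensity was 4752 and 6192 there against 537 to 636 in the other 14 pools. Skeletal muscle markers varied between pools of the same group, with a mean centred log2 score of 0.73 and 2.16 in the mixture pools at PND35 and 1.12 and -0.01 in the vinclozolin pools at PND50.

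**Figure D2:**
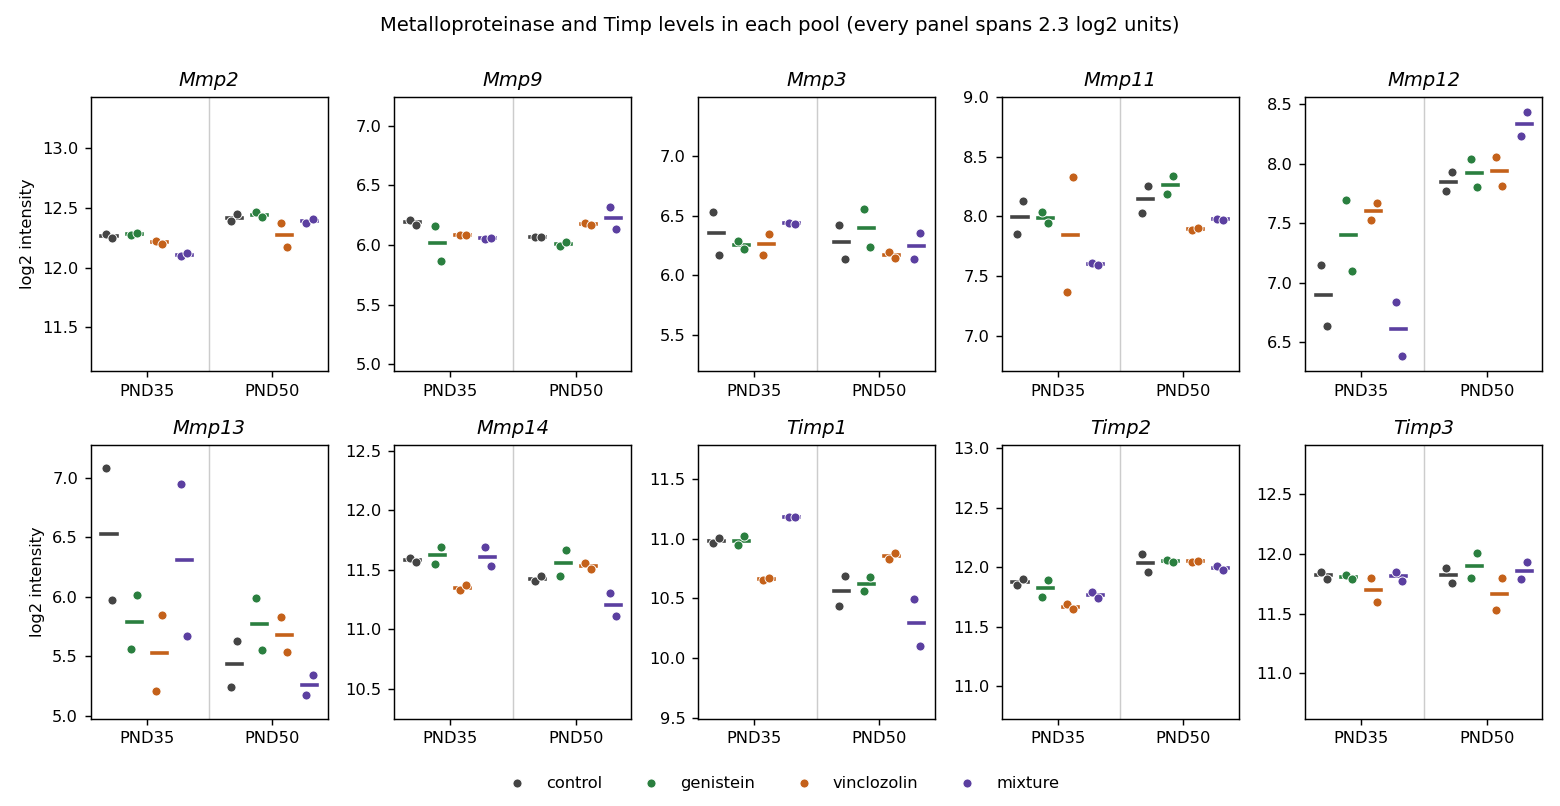
Log2 intensity of the 10 genes in each of the 16 pools, with age on the x axis, a point for each pool, a bar for the mean of the 2 pools of a group, and control, genistein, vinclozolin and mixture in grey, green, orange and purple. Every panel spans 2.3 log2 units. The PND50 pools of Mmp12 (7.77 to 8.43) and Timp2 (11.96 to 12.11) lie above all PND35 pools, and the Mmp13 and Mmp11 panels show the widest gaps between pools of a group.

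The ages were compared first, to ask how these genes changed as the gland passed through puberty. Averaged over the 4 treatments, Mmp12, Timp2 and Mmp2 were higher at PND50, Timp1 was lower, and the other 6 did not pass the limma test at an adjusted p of 0.05. These 3 rises and 1 fall among 10 genes stand beside 44.6% of all tested genes past the same test, 19.4% higher and 25.2% lower, so the share that changed with age was close to that of genes in general. The median change of the 10 was 0.03 on the log2 scale, against -0.01 over all tested genes. In these bulk samples fewer cells of a type and less RNA per cell cannot be told apart.

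Mmp12 encodes macrophage elastase, which cuts elastin and is made mainly by macrophages. Its log2 intensity at PND35 was 7.15 and 6.64 in the control pools, 7.70 and 7.10 with genistein, 7.52 and 7.67 with vinclozolin and 6.84 and 6.39 with the mixture. At PND50 it was 7.77 and 7.93 in the controls, 8.04 and 7.80 with genistein, 8.06 and 7.81 with vinclozolin and 8.23 and 8.43 with the mixture. The lowest of the 8 PND50 pools stood above the highest of the 8 PND35 pools, a separation that 5.76% of all tested genes showed in either direction and that among the 10 genes only Mmp12 and Timp2 showed. Mmp12 rose 1.84-fold (log2 0.88, SE 0.11, n = 8 pools per age, adjusted p = 0.000199), the largest change among the 10. Ordered by mean, the groups ran from mixture PND35 (6.61) over control PND35 (6.90), genistein PND35 (7.40) and vinclozolin PND35 (7.60) to control PND50 (7.85), genistein PND50 (7.92), vinclozolin PND50 (7.94) and mixture PND50 (8.33). The pools of the first 4 groups overlapped from each neighbour to the next, as did those of the control, genistein and vinclozolin groups at PND50, while the mixture pools at PND50 stood above all others.

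Macrophage markers moved in both directions between the ages, where 19.4% of all tested genes rose and 25.2% fell. Of 18 tested, 5 rose with age (Mpeg1, Cd14, Tyrobp, C1qb and Adgre1), 2 fell (Mrc1 and Gpnmb) and 11 did not pass, with a median change of 0.07. Their summed linear intensity was 9016 to 12233 at PND35 and 9946 to 11935 at PND50, so the ages overlapped. None of the 18 was under the filter, and Cd68 averaged 9.64, Csf1r 10.47 and Cd163 9.81.

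Mmp2 and Mmp9 are the gelatinases, which cut denatured collagen and the collagen of basement membranes. The Mmp2 level at PND35 was 12.28 and 12.25 in the controls, 12.27 and 12.29 with genistein, 12.23 and 12.20 with vinclozolin and 12.09 and 12.12 with the mixture. At PND50 it was 12.39 and 12.45, 12.47 and 12.42, 12.38 and 12.17, and 12.37 and 12.40 in the same order. The second vinclozolin pool at PND50 was the only PND50 pool inside the PND35 range. Mmp2 rose by 0.16 (SE 0.03, adjusted p = 0.00308), a small, 1.12-fold change. It was larger than the SD between pools of a group (0.06) but smaller than the gap between the 2 vinclozolin pools at PND50 (0.21). The Mmp9 range was 5.86 to 6.21 at the younger age and 5.99 to 6.32 at the older, with a change of 0.03 (SE 0.04, adjusted p = 0.564). Its values were close to the filter value of 5.66, below which probe sets were treated as too dim.

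Mmp14 is a membrane-bound protease that activates the Mmp2 precursor on the cell surface with the help of Timp2. It was 11.60 and 11.57 in the PND35 controls, 11.55 and 11.69 with genistein, 11.33 and 11.37 with vinclozolin and 11.69 and 11.53 with the mixture. At PND50 the same groups had 11.40 and 11.44, 11.45 and 11.67, 11.56 and 11.51, and 11.31 and 11.11. The lowest pools were thus those of vinclozolin at PND35 and of the mixture at PND50. The average change of -0.11 (SE 0.05, adjusted p = 0.0702) did not pass. Averaged over the other treatments, without the vinclozolin pools of both ages, it was -0.21 (adjusted p = 0.0155). Leaving out genistein PND50 replicate 2 or mixture PND50 replicate 1 also brought it past the threshold (-0.14 for both, adjusted p = 0.0296 and 0.0373).

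Mmp3 and Mmp11 are stromelysins. Mmp3, which also activates other precursors, ranged from 6.17 to 6.53 at PND35 and from 6.13 to 6.56 at PND50, a difference of -0.05 (SE 0.07, adjusted p = 0.551). Its mean of 6.30 was near that of Mmp9 (6.10) and not far above the filter value, which limits this result. Mmp11, which is typically made by stromal cells beside epithelium, had 7.85 and 8.13 in the PND35 controls, 8.04 and 7.94 with genistein, 7.37 and 8.33 with vinclozolin and 7.61 and 7.60 with the mixture. At PND50 it had 8.03 and 8.26, 8.19 and 8.34, 7.89 and 7.90, and 7.98 and 7.97. The 2 vinclozolin pools at PND35 differed 1.95-fold and held both the lowest of all 16 values and the second highest. The average change of Mmp11 was 0.21 (SE 0.11, adjusted p = 0.139). Without the second of those pools it was 0.33 (adjusted p = 0.00093).

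Mmp13, the collagenase of rodents that cuts fibrillar collagen, varied most between pools. At PND35 it was 7.08 and 5.97 in the controls, 5.56 and 6.02 with genistein, 5.21 and 5.85 with vinclozolin and 6.94 and 5.67 with the mixture. At PND50 it was 5.25 and 5.63, 5.99 and 5.56, 5.83 and 5.53, and 5.17 and 5.34. A single pool of the controls and a single pool of the mixture at PND35 were high, and the 2 mixture pools differed 2.42-fold. Its SD between pools of a group was 0.50, against a median of 0.10 over tested genes, and its values fell on both sides of the filter value. The average age change of -0.50 (SE 0.21, adjusted p = 0.0678) did not pass. Leaving out control PND35 replicate 2, vinclozolin PND35 replicate 1 or mixture PND35 replicate 2 brought it past the threshold, at -0.64 (adjusted p = 0.0241), -0.58 (adjusted p = 0.0441) and -0.66 (adjusted p = 0.015). Quantile normalization did so too, at -0.57 (adjusted p = 0.0462).

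Timp1 is a secreted inhibitor that also binds the Mmp9 precursor and blocks Mmp14 poorly. The PND35 level was 10.97 and 11.00 in the controls, 10.95 and 11.02 with genistein, 10.65 and 10.67 with vinclozolin and 11.18 and 11.18 with the mixture. At PND50 it was 10.43 and 10.69 in the controls, 10.56 and 10.68 with genistein, 10.83 and 10.88 with vinclozolin and 10.49 and 10.10 with the mixture. Vinclozolin pools were the lowest at PND35 and the highest at PND50, and mixture pools the reverse, apart from 1 control pool that lay below 1 mixture pool at PND50. Averaged over treatments, Timp1 fell by 0.37 (SE 0.06, 1.29-fold lower, adjusted p = 0.0006). Averaged over the other treatments, without the vinclozolin pools of both ages, the change was -0.56. By group mean the order was mixture PND50 (10.29), control PND50 (10.56), genistein PND50 (10.62), vinclozolin PND35 (10.66), vinclozolin PND50 (10.86), genistein PND35 (10.98), control PND35 (10.99) and mixture PND35 (11.18). Pools of the first 4 overlapped between neighbours, the genistein and control pools at PND35 overlapped, and the vinclozolin pools at PND50 and the mixture pools at PND35 touched no neighbour.

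Timp2 inhibits many metalloproteinases and at low amounts bridges Mmp14 and the Mmp2 precursor. It was 11.86 and 11.91 in the PND35 controls, 11.75 and 11.90 with genistein, 11.69 and 11.65 with vinclozolin and 11.80 and 11.74 with the mixture. The PND50 values were 12.11 and 11.96, 12.06 and 12.05, 12.05 and 12.06, and 12.01 and 11.98. Every PND50 pool stood above every PND35 pool, and Timp2 rose 1.19-fold (log2 0.25, SE 0.03, adjusted p = 0.00035). Timp3, which stays bound to the matrix and also blocks Adam17, ranged from 11.60 to 11.85 in the younger and from 11.53 to 12.01 in the older pools. Its change was 0.03 (SE 0.05, adjusted p = 0.705).

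Other cell types and states moved between the ages beside Timp1 and Timp2, and their part in these changes was not tested. Among all tested genes 19.4% rose and 25.2% fell in the same average. Of 12 proliferation markers 10 fell and 0 rose, with a summed intensity of 2816 to 4971 at PND35 and 2069 to 3706 at PND50. Skeletal muscle markers fell in 12 of 14 and rose in 0, with sums of 5342 to 26761 and 1619 to 14893. Of 13 fibroblast markers 4 rose and 4 fell (16316 to 20601 against 18066 to 21408), and of 7 lymphocyte markers 6 rose and 0 fell (1925 to 2775 against 2452 to 3041). Luminal markers rose in 8 of 14 and fell in 0 (10555 to 16362 against 14030 to 16368). Of 9 basal markers 6 rose and 1 fell, of 8 neutrophil markers 4 rose and 2 fell, of 11 mast cell markers 3 rose and 8 fell, and of 7 endothelial markers 1 rose and 1 fell. Adipocyte markers fell in 5 of 11 and erythroid markers in 4 of 4, and 0 of either rose. Of 7 skin and hair markers 5 fell and 0 rose, whereas in the control groups alone 0 passed in either direction. Under the filter were S100a8, S100a9, Camp and Ngp of neutrophils, Cd3d, Cd3g and Cd2 of lymphocytes, and Krt1 and Krt2 of skin.

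**Figure D3:**
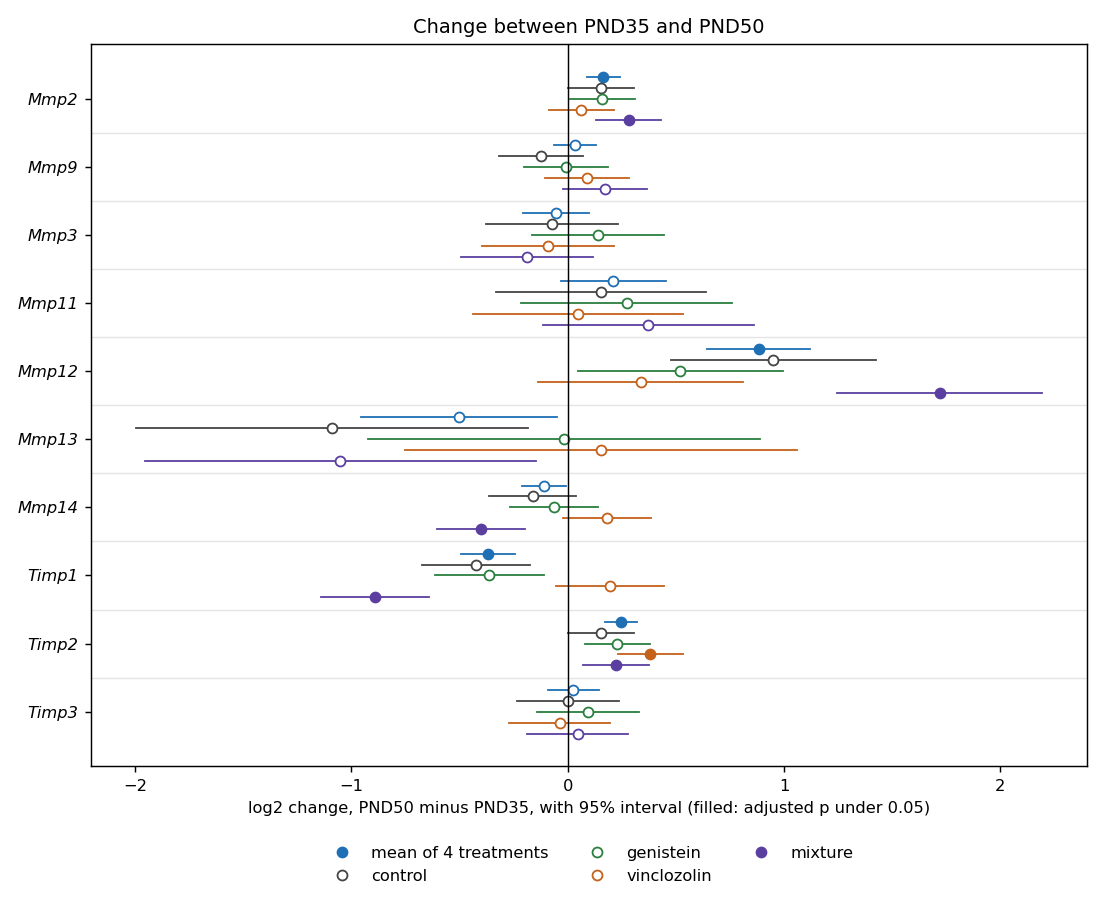
Log2 change from PND35 to PND50 with its 95% interval for each of the 10 genes, as the mean of the 4 treatments (blue) and within control, genistein, vinclozolin and mixture; filled points passed the limma test at an adjusted p of 0.05. Mmp12 and Timp1 show the largest filled changes, 1.72 and -0.89 in the mixture, and the vinclozolin point of Timp1 (0.19) lies on the other side of 0.

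Within single treatments, each comparison rested on 2 pools per age, and the 4 treatments gave different counts. In the controls 0 of the 10 genes passed limma, where 0.865% of all tested genes did. An unadjusted p under 0.05 was found for 5 of the 10, against 18.3% of all genes tested (2154). The control changes were 0.95 for Mmp12 (SE 0.22, adjusted p = 0.0674), -0.42 for Timp1 (SE 0.11, adjusted p = 0.102), -1.09 for Mmp13 (SE 0.41, adjusted p = 0.203), and 0.15 for both Mmp2 and Timp2 (adjusted p = 0.267 and 0.264). Leaving out either genistein PND35 pool brought Mmp12 past the threshold (adjusted p = 0.0333 for both). With genistein 0 of 10 passed beside 2.77% of all genes. There 4 of the 10 and 23.3% of all genes (2744) had an unadjusted p under 0.05. Timp2 had 0.23 (adjusted p = 0.0857), Timp1 -0.36 (adjusted p = 0.0949) and Mmp12 0.52 (adjusted p = 0.178).

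After vinclozolin, Timp2 was the 1 gene of the 10 that rose, by 0.38 (SE 0.07, adjusted p = 0.0161), where 2.78% of all genes passed. Its call was lost without vinclozolin PND35 replicate 2, vinclozolin PND50 replicate 1 or vinclozolin PND50 replicate 2 (adjusted p = 0.0599, 0.0789 and 0.114). Timp1 had 0.19 (95% interval -0.06 to 0.44), Mmp14 0.18 (-0.02 to 0.38) and Mmp12 0.34 (-0.14 to 0.81), none past the test.

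In the mixture groups 5 of the 10 changed with age, beside 32.7% of all genes. Mmp12 rose 3.29-fold (log2 1.72, SE 0.22, adjusted p = 0.00054) and Timp1 was 1.85-fold lower (log2 -0.89, SE 0.11, adjusted p = 0.000571). Mmp14 fell by 0.40 (SE 0.09, adjusted p = 0.00807), Mmp2 rose by 0.28 (SE 0.07, adjusted p = 0.0108) and Timp2 rose by 0.22 (SE 0.07, adjusted p = 0.0291). The calls of Mmp12 and Timp1 held when any one pool was left out. That of Timp2 was lost without any 1 of the 4 mixture pools (adjusted p = 0.061 to 0.153), with each array centred on its median (0.0742) or with the compared groups only (0.0573), that of Mmp2 without mixture PND35 replicate 1 or 2 or mixture PND50 replicate 2 (adjusted p = 0.0505 to 0.0691), and that of Mmp14 without mixture PND35 replicate 1 or mixture PND50 replicate 2 (adjusted p = 0.0591 and 0.081). Mmp13 had -1.05 (SE 0.41, adjusted p = 0.0708) and passed without mixture PND35 replicate 2 (-1.69, adjusted p = 0.0256) or either control PND35 pool (adjusted p = 0.0481). Mmp11 had 0.37 (SE 0.22, adjusted p = 0.211) and passed without either vinclozolin PND35 pool (adjusted p = 0.0164) or with the compared groups only (0.0134). Beside these changes 11 of 12 proliferation markers fell (median -1.43) and 13 of 14 muscle markers fell (median -2.82). Luminal markers rose in 8 of 14, lymphocyte markers in 5 of 7 and basal markers in 4 of 9, while adipocyte markers fell in 4 of 11 and erythroid markers in 3 of 4. The part of these cell types and states was not tested. The mixture pools at PND35 had muscle scores of 0.73 and 2.16. In the same order the 5 called genes had 6.84 and 6.39 (Mmp12), 11.18 and 11.18 (Timp1), 11.69 and 11.53 (Mmp14), 12.09 and 12.12 (Mmp2), and 11.80 and 11.74 (Timp2). Macrophage markers rose in 2 of 18 and fell in 2, with summed intensities of 10362 and 10607 at PND35 and 11108 and 11237 at PND50.

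The exposed groups were compared with the controls of their age, the question being whether the early exposure had lasting effects. No gene of the 10 passed limma in any of these 6 comparisons, and the smallest adjusted p among them was 0.161. The comparisons of an age share the same 2 control pools.

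**Figure D4:**
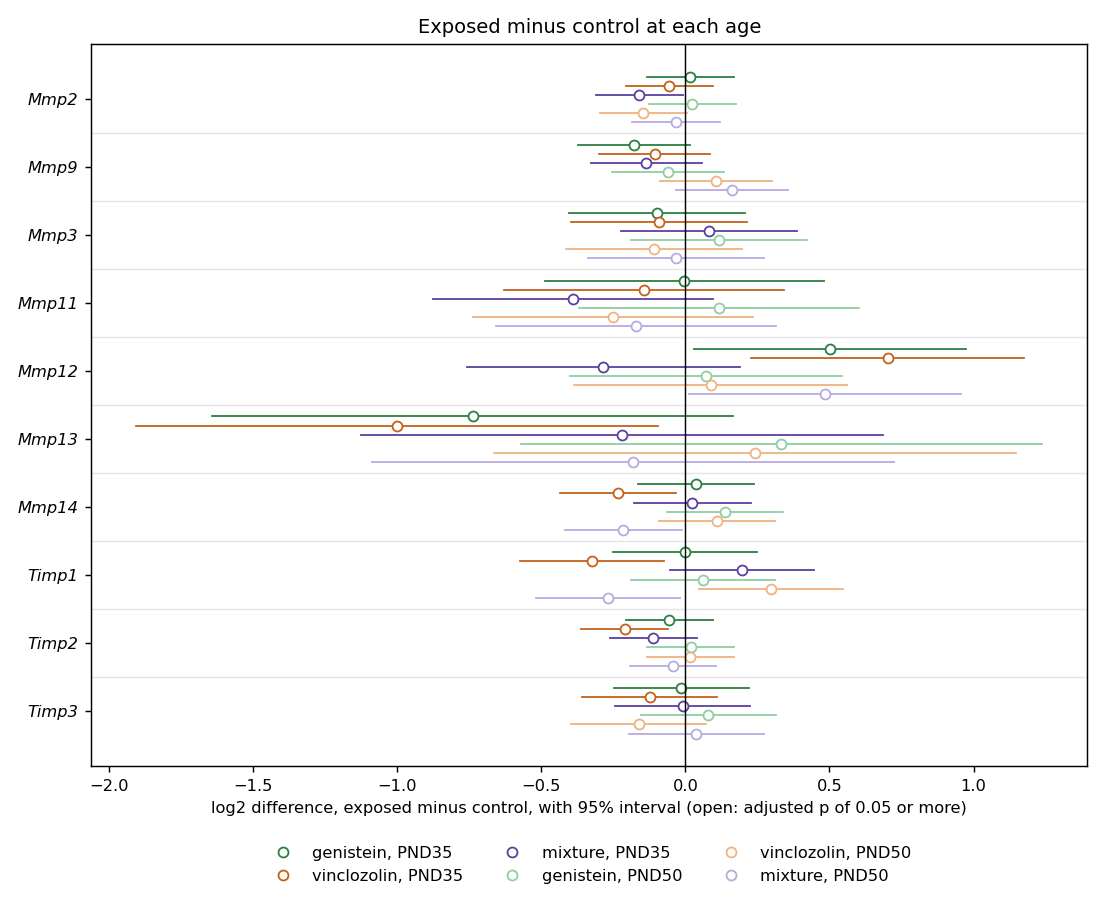
Log2 difference from the control of the same age with its 95% interval for each of the 10 genes, in green for genistein, orange for vinclozolin and purple for the mixture, darker for PND35 and lighter for PND50. All points are open because no adjusted p was under 0.05, and the intervals of Mmp13 are the widest, reaching from -1.91 to 1.24.

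Vinclozolin at PND35 left 0 of 10 past the test, beside 1.34% of all genes. Here 5 of the 10 and 14.5% of all genes (1716) had an unadjusted p under 0.05. The median difference of the 10 was -0.13, and -0.02 over all genes, with 9 of the 10 below 0. Mmp12, the exception, had 0.70 (95% interval 0.23 to 1.18, adjusted p = 0.161), with 7.52 and 7.67 in the exposed pools against 7.15 and 6.64. Timp1 had -0.32 (-0.57 to -0.07), Timp2 -0.21 (-0.36 to -0.06), Mmp14 -0.23 (-0.43 to -0.03), and the interval of Mmp13 was -1.91 to -0.10. Without vinclozolin PND35 replicate 2, Mmp11 passed at -0.62 (adjusted p = 0.0409), and with all pools it had -0.14. Of the same list of macrophage markers 0 rose and 2 fell in this comparison, with a median of -0.37 and sums of 9016 and 10109 against 11251 and 12233. Skin and hair markers rose in 6 of 7 (median 3.30), basal markers in 2 of 9 and luminal markers in 1 of 14, and 2 of 11 mast cell markers fell. Whether these bear on the 10 genes was not tested.

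Genistein at PND35 gave 0 of 10 past limma and 0% of all genes. At an unadjusted p under 0.05 were 1 of the 10 and 11.1% of all genes (1311). Mmp12 had 0.50 (95% interval 0.03 to 0.98, adjusted p = 0.436) and the other intervals held 0. For the mixture at PND35 0 of 10 and 0% of all genes passed. An unadjusted p under 0.05 was found for 15.3% of all genes (1799) and 1 of the 10. That gene was Mmp2, at -0.16 (-0.31 to -0.01, adjusted p = 0.304). Timp1 had 0.20 (-0.05 to 0.45) and Mmp12 -0.28 (-0.76 to 0.19).

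At PND50, genistein left 0 of 10 and 0% of all genes past limma. An unadjusted p under 0.05 was found for 0 of the 10 and 2.6% of all genes (307). Vinclozolin left 0 of 10 and 0% of all genes past limma. There 6.04% of all genes (713) and 1 of the 10 had an unadjusted p under 0.05. Timp1 was that gene, at 0.30 (95% interval 0.05 to 0.55, adjusted p = 0.8), with 10.83 and 10.88 against 10.43 and 10.69. For the mixture 0 of 10 passed beside 0.00848% of all genes. There 7.41% of all genes (874) and 3 of the 10 had an unadjusted p under 0.05. These were Mmp12 at 0.48 (0.01 to 0.96), Mmp14 at -0.22 (-0.42 to -0.01) and Timp1 at -0.27 (-0.52 to -0.02), with adjusted p = 0.664, 0.66 and 0.66.

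The mixture was next set against each compound alone, at the same age and labelled dose. At PND35, 2 of the 10 genes differed between the mixture and vinclozolin alone, where 2.61% of all genes did. Mmp12 was 1.98-fold lower with the mixture (log2 -0.99, SE 0.22, adjusted p = 0.0384), with 6.84 and 6.39 against 7.52 and 7.67. Timp1 was 1.43-fold higher (log2 0.52, SE 0.11, adjusted p = 0.0384), with 11.18 and 11.18 against 10.65 and 10.67. Both adjusted p-values lay near the threshold. The Mmp12 call was lost without vinclozolin PND35 replicate 2 (adjusted p = 0.142), mixture PND35 replicate 2 (0.291) or any 1 pool of the control, vinclozolin or mixture groups at PND50 (0.0528 to 0.0555). The Timp1 call was lost without any 1 pool of the control, vinclozolin or mixture groups at PND35 or of the vinclozolin group at PND50 (0.0551 to 0.224). Beside these differences 6 of 7 skin and hair markers were lower with the mixture (median -3.41), 2 of 14 muscle markers were higher (median 1.45), 2 of 13 fibroblast markers were higher, 3 of 9 basal markers were lower and 1 of 12 proliferation markers was higher (median 0.58), and their part was not tested. Of 18 macrophage markers 0 passed in either direction (median 0.20). Mmp11, at -0.25 with all pools, passed without vinclozolin PND35 replicate 1 (-0.73, adjusted p = 0.0055).

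Other mixture comparisons called none of the 10. Against genistein at PND35, 0 of 10 and 0% of all genes passed limma. There 2 of the 10 and 12% of all genes (1417) had an unadjusted p under 0.05. Mmp12 had -0.79 (95% interval -1.26 to -0.31, adjusted p = 0.287) and Mmp2 -0.18 (-0.33 to -0.03). Against genistein at PND50, 0 of 10 passed beside 0.0254% of all genes. At an unadjusted p under 0.05 were 3 of the 10 and 8.47% of all genes (999). Mmp14 had -0.35 (-0.55 to -0.15), Timp1 -0.33 (-0.58 to -0.08) and Mmp9 0.22 (0.03 to 0.42). Against vinclozolin at PND50, 0 of 10 passed beside 0.0339% of all genes. At an unadjusted p under 0.05 were 2 of the 10 and 11.4% of all genes (1342). Timp1 had -0.56 (-0.81 to -0.31, adjusted p = 0.157), with 10.49 and 10.10 against 10.83 and 10.88, and Mmp14 had -0.32 (-0.53 to -0.12, adjusted p = 0.244).

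Whether the age change differed between treatments was tested as the difference of 2 age changes. Against the controls 0 of the 10 passed limma for genistein, vinclozolin and the mixture, beside 0%, 0.381% and 0% of all genes. The counts at an unadjusted p under 0.05 were 0, 3 and 3 of the 10. Of all genes they were 7.68%, 6.71% and 12.2% (906, 792 and 1435). Timp1 had 0.62 for vinclozolin (95% interval 0.27 to 0.97, adjusted p = 0.296) and -0.46 for the mixture (-0.82 to -0.11, adjusted p = 0.331), both against the same control pools. Mmp12 had -0.61 for vinclozolin (-1.28 to 0.06) and 0.77 for the mixture (0.10 to 1.44).

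After these values had been seen, the age change in the mixture was also compared with that in vinclozolin and in genistein. Against vinclozolin, Timp1, Mmp12 and Mmp14 differed, 3 of the 10 beside 3.3% of all genes. Timp1 changed by -0.89 in the mixture and 0.19 after vinclozolin, a difference of -1.08 (SE 0.16, adjusted p = 0.00652). Mmp12 changed by 1.72 and 0.34, a difference of 1.38 (SE 0.31, adjusted p = 0.037), and Mmp14 by -0.40 and 0.18, a difference of -0.58 (SE 0.13, adjusted p = 0.0375). The Timp1 difference held without any 1 pool. That of Mmp12 was lost without vinclozolin PND35 replicate 2, mixture PND35 replicate 2 or any 1 of the 4 mixture and vinclozolin pools at PND50 (adjusted p = 0.0731 to 0.14). That of Mmp14 was lost without either control PND35 pool, any 1 of the 4 vinclozolin pools, either mixture PND35 pool or mixture PND50 replicate 2 (adjusted p = 0.0558 to 0.145), and with the compared groups only (0.0744). Beside these 3 differences, 11 of 14 muscle and 9 of 12 proliferation markers were lower and 6 of 7 skin and hair markers higher, and their part was not tested. Mmp11 passed this comparison without vinclozolin PND35 replicate 1 (0.81, adjusted p = 0.0196). Against genistein 0 of 10 passed limma beside 0.0339% of all genes. At an unadjusted p under 0.05 were 3 of the 10 and 12.8% of all genes (1514). The interval of Mmp12 was 0.53 to 1.87 there (adjusted p = 0.164), and it passed without genistein PND35 replicate 2 (adjusted p = 0.0381).

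Genes of the same system were counted from lists that hold none of the 10. Of 15 other metalloproteinases 13 were named on the array and 8 tested, with Mmp1, Mmp8, Mmp10, Mmp20 and Mmp21 under the filter. In the age average 3 fell and 0 rose (median -0.09), where 25.2% of all tested genes fell and 19.4% rose. Mmp16, a membrane-bound relative of Mmp14, fell by 0.20 (SE 0.05, adjusted p = 0.00501), Mmp19 fell by 0.27 (SE 0.08) and Mmp28, epilysin, fell by 0.25 (SE 0.07). Of 16 other inhibitors and activators 2 rose and 3 fell. Serpine2, an inhibitor of serine proteases, fell by 0.37 (SE 0.03, adjusted p = 3.72e-05), and Plat, the tissue plasminogen activator, fell by 0.29 (SE 0.05). Timp4, the fourth tissue inhibitor, fell by 0.26 (SE 0.08), while the broad protease inhibitor A2m rose by 0.18 (SE 0.04) and the proteoglycan Spock1 rose by 0.17 (SE 0.04).

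Among 14 ADAM and ADAMTS proteases 7 fell and 1 rose with age (median -0.13), where 25.2% of all tested genes fell and 19.4% rose. Adam17, the protease that sheds growth factors and is blocked by Timp3, fell by 0.25 (SE 0.03, adjusted p = 0.000281). Adamts12, Adamts9 and Adamts1 fell by 0.17, 0.19 and 0.22. Of 21 listed genes of the matrix, 13 fell and 3 rose (median -0.19). The basement membrane collagen Col4a1 fell by 0.55 (SE 0.07, adjusted p = 0.00019), and the fibrillar collagens Col5a2 and Col3a1 fell by 0.39 (SE 0.06) and 0.27 (SE 0.05). Lox, which cross-links collagen, fell by 0.19 (SE 0.03). In the mixture groups alone 16 of the 21 fell and 2 rose (median -0.33), where 18.3% of all tested genes fell and 14.4% rose. In the controls alone 0 passed in either direction (median -0.23), beside 0.865% of all tested genes.

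Exposure comparisons called few genes of these lists. Of all tested genes 1.34% passed for vinclozolin at PND35 and 2.61% for the mixture against vinclozolin at PND35. For the age changes of the mixture and vinclozolin it was 3.3%. Vinclozolin at PND35 called Fn1, the fibronectin gene, at -0.34 (SE 0.07, adjusted p = 0.049) and the protease gene Ctss at -0.48 (SE 0.10, adjusted p = 0.0494). The mixture against vinclozolin at PND35 called 4 of the 21 matrix genes, all higher, with Col12a1 at 0.79 (SE 0.17), Col1a2 at 0.42 (SE 0.10), Lamc1 at 0.39 (SE 0.09) and Fn1 at 0.34 (SE 0.07). It also called Serpine2 at 0.50 (SE 0.06) and Reck, a membrane-anchored inhibitor of metalloproteinases, at 0.37 (SE 0.08), of 16. In the comparison of the age changes of the mixture and vinclozolin, Mmp16 differed by -0.92 (SE 0.13, adjusted p = 0.00519), and 2 of 16 inhibitors and activators (Reck and Serpine2) and 6 of 21 matrix genes were called, all lower.

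The 10 genes were correlated with each other over pools, as 45 pairs. Within each age, 0 of the 45 pairs had an adjusted p under 0.05 by exact permutation over the 8 pools. Timp1 and Mmp14 had r = 0.83 at PND35 (exact permutation p = 0.0159, rho 0.69 with p = 0.0694, adjusted p = 0.314) and r = 0.85 at PND50 (exact permutation p = 0.01, rho 0.76 with p = 0.0368, adjusted p = 0.45). The 2 pools farthest from the median Mmp14 level were both vinclozolin pools at PND35, and genistein replicate 2 and mixture replicate 2 at PND50. Without them r was 0.16 at PND35, so that relation rests on the vinclozolin pools, and 0.82 at PND50. Over all 16 pools it was 0.83 (permutation p = 0.00017, rho 0.81 with p = 0.00028, adjusted p = 0.00383), and 0.67 without the 2 farthest. Mmp2 and Timp1 had r = -0.68 over the 16 pools (permutation p = 0.00329, rho -0.61 with p = 0.0155, adjusted p = 0.037, and -0.61 without the 2 farthest), but within PND35 and PND50 it was -0.38 and -0.42, and 0.86 and 0.11 without the 2 farthest pools, so it did not hold within the ages. Timp1 and Mmp12 passed at neither age, with r = -0.79 at PND35 (exact permutation p = 0.0209, rho -0.79 with p = 0.0279, adjusted p = 0.314) and -0.65 at PND50 (exact permutation p = 0.08, rho -0.26 with p = 0.536, adjusted p = 0.637). At PND50 r was 0.22 without the 2 pools farthest from the median Mmp12 level, both of the mixture, so it rests on them there. At PND35 r was -0.87 without the 2 farthest, mixture replicate 2 and genistein replicate 1. Pairs without Timp1 reached a similar r. Mmp14 and Timp2 had r = 0.79 at PND35 (exact permutation p = 0.0195, rho 0.81 with p = 0.0218, adjusted p = 0.314), 0.44 without the 2 farthest pools, and 0.44 at PND50. Mmp12 and Mmp14 had r = -0.78 at PND50 (exact permutation p = 0.0209, rho -0.48 with p = 0.243, adjusted p = 0.47), -0.05 without the 2 farthest pools, and -0.49 at PND35. No value over both ages is given for pairs with Mmp12 or Timp2, whose ages formed separate clusters. The 2 pools of a group share their treatment, which these correlations do not separate from other sources. The permutations moved pools freely, so their p-values do not allow for the groups and may be too small. Over all 16 pools they do not allow for age either.

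**Figure D5:**
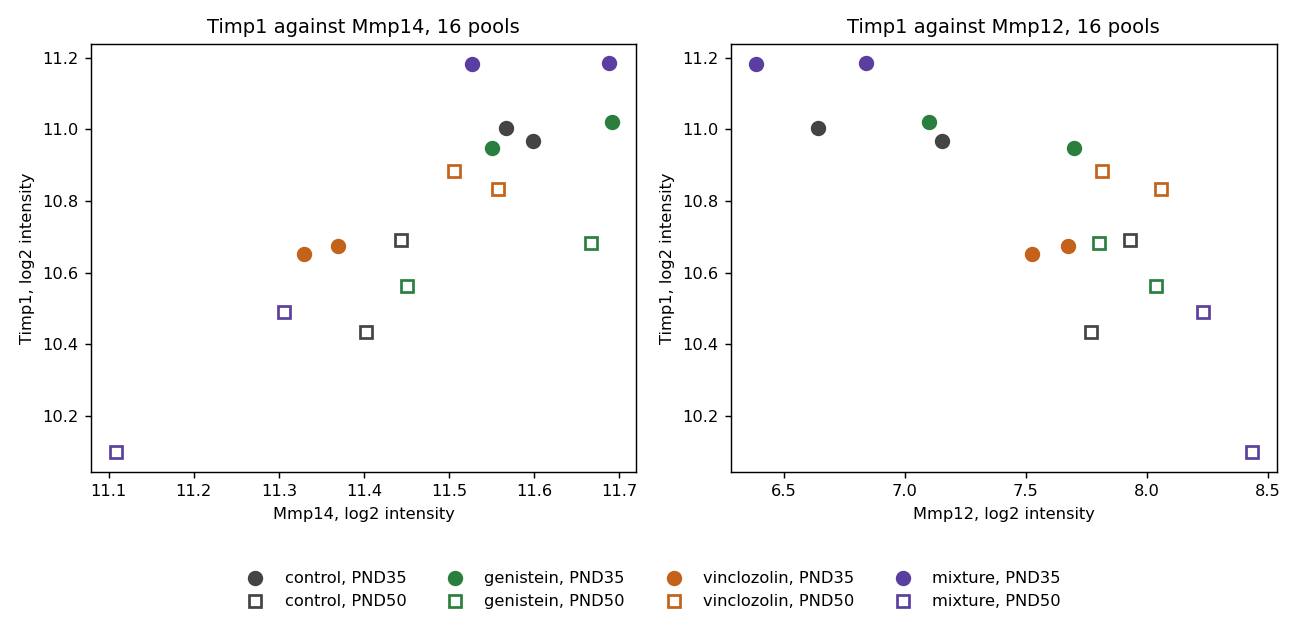
Timp1 log2 intensity in the 16 pools against that of Mmp14 (left) and Mmp12 (right), with filled circles for PND35, open squares for PND50 and colours for the treatments. The mixture pools at PND35 are the highest on the Timp1 axis (11.18), those at PND50 lie at 10.10 and 10.49, with 1 control pool at 10.43 between them, and the vinclozolin pools lie between 10.65 and 10.88 at both ages.

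The genes most like each of the 10, by Pearson r over the 16 pools, are given as a description only, since all points share their arrays and the age difference, which for Mmp12 and Timp2 separates the pools into clusters. Nearest to Mmp12 were C6h2orf50 (r = 0.96), Sectm1b (0.96) and Lbp (0.95), the gene of the lipopolysaccharide-binding protein, with 0.93, 0.92 and 0.91 within PND35 and 0.86, 0.75 and 0.81 within PND50. Timp1 was nearest to the phosphatase gene Ptprv (0.94), the mitotic checkpoint kinase gene Bub1b (0.94) and the tubulin gene Tubb5 (0.93), with 0.93, 0.84 and 0.81 within PND35 and 0.89, 0.94 and 0.93 within PND50. Mmp14 was nearest to Fkbp8 (0.94), Plekhg2 (0.92) and Ptprs (0.89), and these held 0.86 to 0.96 within each age. Timp2 was nearest to Cd74 (0.91) and RT1-Db1 (0.91), both of antigen presentation by major histocompatibility complex class II, and to Zfp358 (0.91). Within PND35, RT1-Db1 had 0.76 and Cd74 0.61 with Timp2, and within PND50 -0.07 and 0.46. For Mmp2 the nearest was Prodh2 (0.88), for Timp3 Fgfr1op2 (0.86), for Mmp11 Cyp2t1 (0.85), for Mmp13 Neto2 (0.80), for Mmp9 Omp (0.78) and for Mmp3 Ddx31 (0.75).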

How the data were processed

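The authors' deposited values, 1 per array and probe set (27342), were used as log2 intensities, as their range of 2.2 to 13.95 allows. For log base, background correction and normalization, the sources used here give no statement. Medians of the arrays ran from 7.05 to 7.14 and were left as they are. Probe sets were named through the platform annotation, 15097 with 1 symbol, 323 with several and 11922 unnamed here. Each gene took its probe set with the highest mean, and genes under the 25th percentile of probe set means (5.661) were left out.

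limma 3.58.1 in R 4.3.3 (lmFit, eBayes) fitted 1 mean per group of treatment and age to all 16 arrays, with 8 residual degrees of freedom. Two-sided p-values received the Benjamini-Hochberg adjustment across the 11796 genes of a comparison, with 0.05 as threshold. There were 18 planned comparisons and 2 chosen after seeing the data. The number of arrays limits the precision, and p-values reflect only the scatter of pools. Named besides the 10 genes were, for each, the genes most correlated with it, and up to 4 list genes past the threshold with the smallest p in the age average, or those past it in exposure comparisons; list genes named beyond that account for counts of 5 or fewer, and the markers named for the tissue check were chosen after their values were seen. Members and lists were chosen with earlier results of these data known. A summed intensity is the sum of a list's unlogged values in a pool. A list's score is the mean of its log2 values, each centred over the arrays.

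The fit was tested on simulated data for 11796 genes, with flat gene means and independent normal noise of the measured spread. Only 200 genes were changed, whereas 44.6% passed in the real age average, where pools can also share differences. Mmp2, Timp2 and Timp1 changed by less than 0.5 there, so the rates below need not hold for these data. For the age average the fit found 91% of the genes set to 0.5 and 99% of those set to 1 (5.473% of calls false), and for vinclozolin at PND35 66% and 91% (4.268% false). Alternatives were other filters and normalizations, array weights, probe set means, an intensity trend with robust eBayes, a replicate block, fewer groups, no vinclozolin PND35 pools and each pool left out in turn. In the age average, the setting without vinclozolin PND35 pools also left out the vinclozolin pools at PND50. Pair tests and figures used Python 3.11.15, with numpy 2.4.6 and matplotlib 3.10.9.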

Additional observations from a re-analysis of the deposited data

Results flagged for a closer look

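A comparison added after the other values had been seen tested the difference between the age changes after the mixture and after vinclozolin alone. This difference passed limma for 3 of the 10 genes, beside 3.3% of all tested genes. For Timp1 it was -1.08 on the log2 scale, with 11.18 and 11.18 at PND35 and 10.49 and 10.10 at PND50 in the mixture pools, against 10.65 and 10.67 at PND35 and 10.83 and 10.88 at PND50 after vinclozolin. For Mmp12 it was 1.38, and for Mmp14 -0.58. The calls of Mmp12 and Mmp14 were lost under some of the alternatives, and that of Timp1 was kept under all. The vinclozolin pools at PND35 carried the skin and hair markers, and mixture PND35 replicate 2 the highest muscle score (2.16), beside these values. No single pool of the 10 genes was flagged as an outlier, since groups of 2 are too small for that test.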

How the results depend on the processing

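Results for 20 comparisons were recomputed under 10 other settings and with each of the 16 pools left out, where a lone pool was assumed to vary like the other groups. Of 15 gene calls in 380 refits, 329 were kept, 51 lost and 0 turned in direction. The age-average calls of Mmp2, Mmp12, Timp1 and Timp2, the mixture age calls of Mmp12 and Timp1, and the added Timp1 difference between mixture and vinclozolin were kept throughout. Of 185 uncalled values in 4700 refits, 25 passed and 117 changed sign uncalled. With the age average taken over the other treatments, without the vinclozolin pools of both ages, 7 of the genes were called in place of 4. Mmp11, Mmp13 and Mmp14 were added. Over the settings that left out no single pool, 4224 to 5486 of all tested genes passed in the age average, against 5261 in the main fit. Array weights called 1 gene (Mmp12) in the control age comparison in place of 0, and 0 in the mixture against vinclozolin at PND35 in place of 2. With the compared groups only, that count was 0 too, and the vinclozolin age count was 0 in place of 1; Mmp14 in the added mixture and vinclozolin age difference and Timp2 in the mixture age comparison were lost, and Mmp11 in the latter was gained (adjusted p = 0.0744, 0.0573 and 0.0134). The smaller fits have fewer residual degrees of freedom. The calls among all tested genes moved too over these settings. They ran from 71 to 375 in the control age comparison (102 in the main fit) and from 25 to 396 in the vinclozolin age comparison (328). For the mixture against vinclozolin at PND35 they ran from 31 to 373 (308). Leaving out single pools, the counts ranged from 0 to 1 for the control age, vinclozolin age and vinclozolin PND35 comparisons and the added mixture and genistein age difference, from 2 to 6 for the mixture age comparison, from 0 to 2 for the mixture against vinclozolin at PND35, and from 1 to 3 for the added mixture and vinclozolin age difference. The 50th percentile filter (7.09) left Mmp3, Mmp9 and Mmp13 untested. Signals near the filter limit Mmp3, Mmp9 and Mmp13.

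The labels number the replicates without saying that the numbers pair pools, and the main fit did not pair them. Same-numbered pools of 28 group pairs correlated between -0.37 and 0.30 in their deviations, and 8 pairs exceeded 0.1. That check cannot tell whether some groups were paired. With the replicate block 19 of 20 comparisons kept their count, and the control age comparison called 1 gene (Mmp12, adjusted p = 0.0446) in place of 0.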
